A study of Mus musculus with 2 samples.

Results

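The Bcl2 family decides in blood progenitors, as elsewhere, whether mitochondria release the factors that start cell death, and its mRNAs were examined here in mouse megakaryocyte-erythroid progenitors (MEP). The 10 genes taken by name were the survival genes Mcl1, Bcl2 and Bcl2l1, the effector genes Bax and Bak1, and the BH3-only genes Bad, Bid, Bcl2l11, Bbc3 and Pmaip1. They were found by symbol among 43346 annotated genes, 21474 of them protein-coding, and each matched 1 identifier. The study sequenced poly(A)-selected RNA as paired ends from primary cells of adult female C57BL/6J mice, 5 weeks old, with no treatment or mutant allele named in the labels. It holds 1 group, MEP, with 2 biological replicates that are separate biosamples under the same donor identifier, and no control group. The labels give the cells as CD34- and mention lineages and CD16/32 without saying how each was gated. With 1 group, no condition was compared, and an exact sign test over 2 libraries cannot give a p below 0.5, so levels are given with their spread and no p-value. Expected counts per library were 79539457 and 65305321, and the members' own counts ran from 961 to 35678.

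In mammalian cells, the effectors BAX and BAK open the outer mitochondrial membrane when they oligomerize, and cytochrome c then leaves to activate the caspases. The survival proteins MCL1, BCL2 and BCL-XL (the product of Bcl2l1) hold effectors and BH3-only proteins in a groove that takes up the BH3 helix. The BH3-only proteins sense cytokine loss, DNA damage or other stress and tip this balance. In mice, MCL1 is needed by haematopoietic stem and progenitor cells, and BCL-XL keeps maturing erythroid cells and platelets alive.

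The stretch that brings these proteins together is the BH3 helix, and its coding bases are shown so that the transcript models below can be placed against them. A leucine codon, any 3 codons, a glycine, alanine or serine codon and an aspartate codon were searched in the main reading frame of each member in GENCODE M21, the annotation used for names. This pattern of 6 codons was present in all 10 members, once in each and at 2 places in Pmaip1. It is loose, since 34.0% of 21359 protein-coding genes hold it in their longest frame, so a match describes a position and does not identify a BH3 helix. The windows are written 5′ to 3′ on the coding strand (GRCm38), with the pattern in capitals and 5 codons on each side in lower case.
Mcl1-201 (chr3:95659421-95659468, plus strand): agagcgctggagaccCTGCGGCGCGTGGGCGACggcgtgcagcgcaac
Bcl2-201 (chr1:106712569-106712616, minus strand): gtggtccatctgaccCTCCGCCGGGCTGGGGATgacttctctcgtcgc
Bcl2l1-201 (chr2:152829691-152829738, minus strand): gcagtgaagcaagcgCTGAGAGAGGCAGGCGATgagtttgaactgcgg
Bax-201 (chr7:45465991-45466038, minus strand): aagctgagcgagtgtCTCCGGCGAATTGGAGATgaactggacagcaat
Bak1-202 (chr17:27022525-27022572, minus strand): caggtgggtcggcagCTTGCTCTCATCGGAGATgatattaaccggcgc
Bad-201 (chr19:6950777-6950824, plus strand): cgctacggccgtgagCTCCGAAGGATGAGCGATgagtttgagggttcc
Bid-201 (chr6:120897283-120897330, minus strand): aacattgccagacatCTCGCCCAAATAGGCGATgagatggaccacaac
Bcl2l11-205 (chr2:128147135-128147182, plus strand): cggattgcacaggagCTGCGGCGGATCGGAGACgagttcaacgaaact
Bbc3-201 (chr7:16313758-16313805, plus strand): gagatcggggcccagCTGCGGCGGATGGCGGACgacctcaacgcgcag
Across the 9 windows shown, the fifth codon of the pattern encodes glycine in 7 members, serine in Bad and alanine in Bbc3. Each window lies within 1 exon.

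All 10 members were expressed. Each reached a TPM (a transcript level corrected for length and library size) of 1 or more in both libraries, and each passed the filter on low counts. That filter kept 13546 of 43346 annotated genes. All 10 members also had a mean TPM of 5 or more, as did 7653 of 21474 protein-coding genes. The share of all genes at 1 TPM is not given here. Mean TPM ranged from 7.79 ± 0.742 for Pmaip1 to 498 ± 78.3 for Mcl1 (SD, n = 2). Mcl1, Bbc3 and Bak1 were the highest, Bax stood below them, Bcl2l11 and Bad came next, and Bcl2l1, Bid, Bcl2 and Pmaip1 were lowest. Survival and BH3-only genes each had members at both ends of this range, whereas both effectors were above 100 TPM in both libraries. In a bulk sample, fewer cells expressing a gene and less RNA per cell cannot be told apart.

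**Figure D1:**
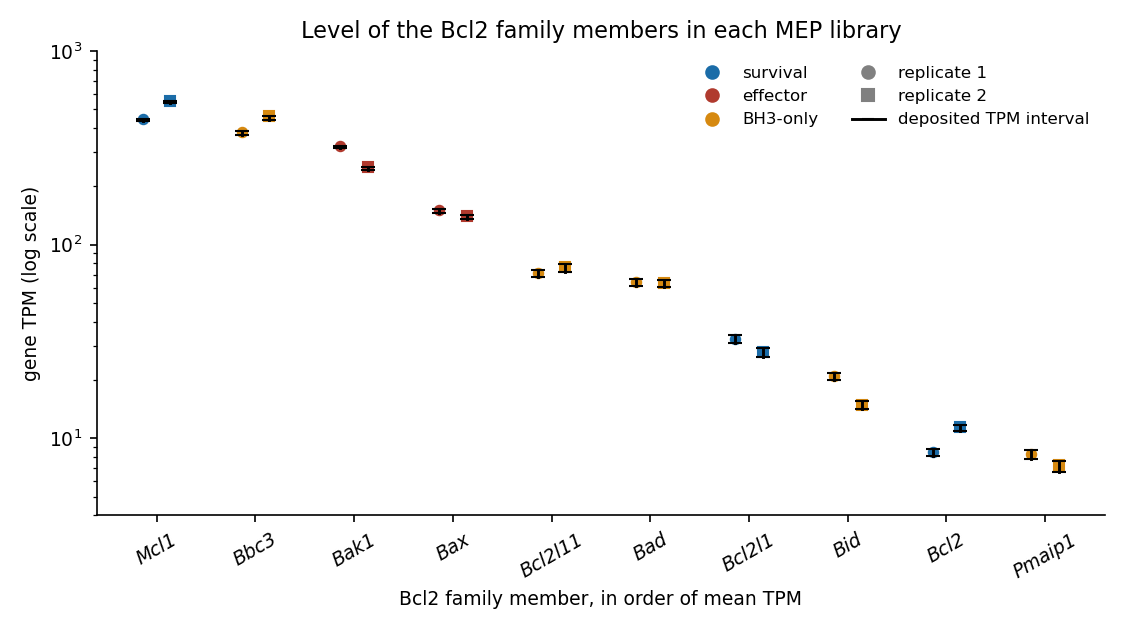
Gene TPM of the 10 members in replicate 1 (circles) and replicate 2 (squares) on a log axis, coloured by role, with the deposited TPM intervals as black bars. Mcl1 is highest at 443 and 554 TPM, Pmaip1 lowest at 8.31 and 7.26 TPM, and the distance between the libraries is small beside the range over members.

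Among the survival genes, Mcl1 (chr3:95658788-95663176, plus strand), whose protein is short-lived and turned over by ubiquitin ligases, was the most abundant; gene positions here and below are on GRCm38. Its TPM was 443 in replicate 1 and 554 in replicate 2, rank 256 of 21474 protein-coding genes by mean TPM. It held 91.5% and 93.3% of the summed TPM of the 3 survival genes. Bcl2l1 (chr2:152780668-152831728, minus strand), which encodes BCL-XL, was at 32.8 and 28.1 TPM, higher in replicate 1. Bcl2 (chr1:106538178-106714274, minus strand), the founding member of the family, was at 8.53 and 11.5 TPM, higher in replicate 2. The values of these 3 genes did not overlap one another.

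Both effector genes were abundant in gene TPM. Bak1 (chr17:27019810-27029009, minus strand), whose protein sits in the mitochondrial membrane before activation, was at 322 TPM in replicate 1 and 251 in replicate 2. Bax (chr7:45461697-45466898, minus strand), whose protein is largely cytosolic until it is activated, was at 151 and 141 TPM. Bak1 exceeded Bax by 2.14-fold and 1.79-fold in the 2 libraries, with separate TPM intervals in each. Bak1 fell short of Bbc3 in both libraries, by a ratio of Bbc3 to Bak1 of 1.18 and 1.82. Most Bak1 TPM was on a transcript annotated as other than protein-coding, as given below. With protein-coding transcripts alone the order of the effectors was reversed, with Bak1 at 24.6 ± 5.44 TPM and Bax at 146 ± 7.38 (SD, n = 2).

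The BH3-only genes were led by Bbc3 (PUMA, chr7:16308393-16318205, plus strand), a p53 target whose protein can bind all the main survival proteins. Bbc3 was at 380 TPM in replicate 1 and 458 in replicate 2, which was 69.7% and 73.9% of the TPM of the 5 BH3-only genes. Bcl2l11 (BIM, chr2:128126038-128162547, plus strand), the member tied to cytokine withdrawal in blood cells, was at 71.3 and 76.5 TPM. Bad (chr19:6941861-6951899, plus strand), whose protein is held in check by phosphorylation downstream of survival signals, was at 64.3 and 63.7 TPM, the closest agreement between libraries of any member.
Bid (chr6:120891930-120916853, minus strand), which links death receptors to mitochondria once it is cut by caspase-8, was at 20.99 and 14.9 TPM. Pmaip1 (NOXA, chr18:66458533-66465565, plus strand), which in the cell mainly opposes MCL1, was at 8.31 and 7.26 TPM. Each of Bid and Pmaip1 was higher in replicate 1.

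Neighbours in the order of mean TPM were compared by their ranges and by the deposited TPM intervals, which cover error within 1 library. The 2 values of Mcl1 overlapped those of Bbc3, so this order rests on means alone, although Mcl1 was higher within each library, by 1.17-fold and 1.21-fold. No other neighbours overlapped. Intervals were separate in both libraries for every neighbouring pair except Bcl2 and Pmaip1, where Bcl2 was higher by 1.03-fold in replicate 1 and 1.58-fold in replicate 2. By a stricter rule, in which the mean difference exceeds 2-fold with the same sign and separate intervals in both libraries, 36 of 45 pairs of members were ordered. The same rule orders 75.6% of all pairs of detected protein-coding genes, so the spread among members is close to that of any expressed genes.
The 9 pairs without a called order were the 3 pairs among Mcl1, Bbc3 and Bak1, together with Bak1 and Bax, Bax and Bcl2l11, Bcl2l11 and Bad, Bcl2l1 and Bid, Bid and Bcl2, and Bcl2 and Pmaip1.

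Summed over roles, the 3 classes had similar TPM. The survival genes summed to 484 TPM in replicate 1 and 593 in replicate 2. The effector genes summed to 473 and 392 TPM, and the BH3-only genes to 544 and 621 TPM. The log2 ratio of survival to effector sums was 0.03 in replicate 1 and 0.60 in replicate 2, a mean of 0.32 ± 0.40 (SD, n = 2). The spread between libraries exceeded this mean, so no direction was resolved. The log2 ratio of BH3-only to effector sums was 0.20 and 0.66, a mean of 0.43 ± 0.33. This direction was kept with protein-coding transcripts alone, at a mean of 1.67. Expected counts without length correction gave -0.39 in replicate 1 and 0.20 in replicate 2, a mean of -0.10. Placing all counts on the longest protein-coding transcript gave -0.53 and 0.02, a mean of -0.25. The libraries differed in sign on both of these scales, so no direction was resolved there. The survival to effector ratio also moved with the scale, to a mean of -1.07 on the longest transcript and 1.64 with protein-coding transcripts alone. Sums of mRNA over roles do not measure the proteins or their binding.

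The levels above depend on which transcript model of a gene received its reads. TPM divides reads by the length of the model, so reads given to a short model count for more. The leading transcript, the one with the highest share of gene TPM, was the same in both libraries for 10 of 10 members. For Bax and Pmaip1, which have 1 model each, this was fixed in advance. By share of expected counts it was the same for 8 of 10. The share over all genes is not given here. In 1 member, Bak1, the leading transcript by TPM was annotated as other than protein-coding in both libraries, against 19% of the 7653 protein-coding genes whose mean TPM reached 5. In 4 members, Mcl1, Bcl2l11, Bbc3 and Bad, it was under 0.5 of the length of the longest protein-coding transcript, against 24.4% of 7642 such genes. Leading models of these kinds are thus common among expressed genes, and nothing particular to the family is read from them.

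**Figure D2:**
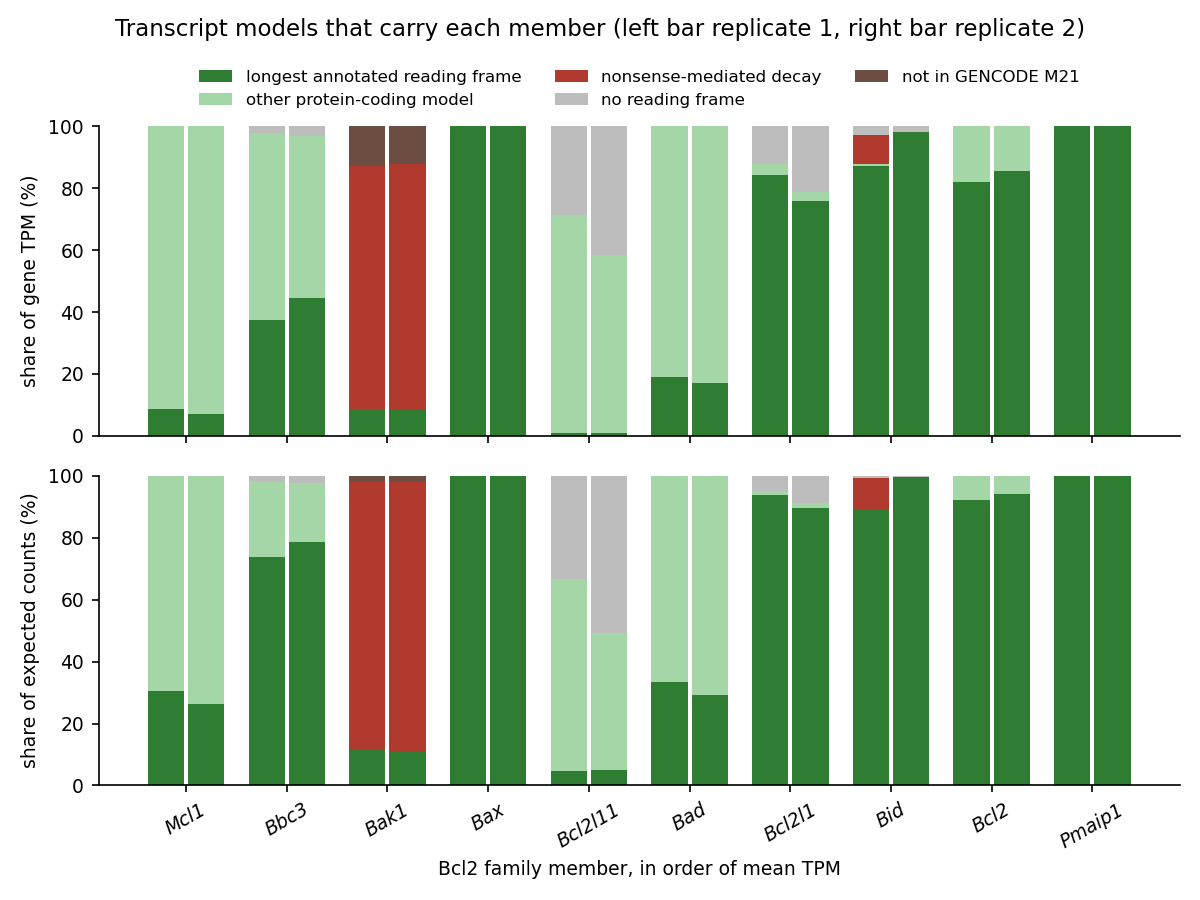
Share of each member's gene TPM (top) and of its expected counts (bottom) by class of transcript model, in percent, with replicate 1 as the left bar and replicate 2 as the right bar of each pair. The decay model held 78.4% and 79.6% of Bak1 TPM, and Mcl1, Bbc3 and Bad carried a larger share of counts than of TPM on the longest annotated reading frame.

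For Bak1, most signal was assigned to a model annotated for nonsense-mediated decay, the pathway that degrades messages with an early stop. This model, Bak1-201, was at 253 TPM in replicate 1 and 200 in replicate 2, which was 78.4% and 79.6% of the gene (79.0 ± 0.813%, SD, n = 2). Bak1-202, the protein-coding model with the full frame of 209 codons, was at 28.5 and 20.8 TPM, or 8.84% and 8.27%. A further model of 416 bases, which is not in GENCODE M21, took 12.7% and 12.2% of TPM, but 2.10% and 1.97% of counts. Its class is unknown here, and it was left out of every value for protein-coding transcripts. Bak1-201 held a larger share in both libraries, by TPM and by counts, where it took 86.0% and 87.0%.

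The 2 Bak1 models differ by an exon of 20 bases, the fifth of Bak1-201 (chr17:27021663-27021682, minus strand, GRCm38), shown here with the 15 bases on either side in the spliced message. In mouse neurons, inclusion of a small exon in Bak1 is known to lower BAK protein. In the first line the capitals mark the small exon, and in the second they mark the bases that follow the junction when it is skipped.
Bak1-201: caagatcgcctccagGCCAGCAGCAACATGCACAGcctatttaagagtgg
Bak1-202: caagatcgcctccagCCTATTTAAGAGTGG
The exon shifts the frame after 114 shared codons, so that Bak1-201 stops after 151 codons, 89 bases before its last junction. The BH3 codons lie before the shift and are in both frames. The models differ also at their first exon, of 168 bases in Bak1-201 and 599 bases in Bak1-202, so reads can favour one or the other for either reason. The tables hold no junction counts, and the part of each in the assignment was not tested. The deposited model of Bak1-203 is 426 bases long against 902 in GENCODE M21, and it was at 0 TPM in both libraries.

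For Mcl1, the leading model was a short one. Mcl1-202, of 858 bases, was at 405 TPM in replicate 1 and 514 in replicate 2, or 91.4% and 92.9% of gene TPM. Mcl1-201, which encodes the full frame of 331 codons, was at 38.1 and 39.2 TPM. By counts the shares of Mcl1-202 were 69.5% and 73.7%, because Mcl1-201 is 3485 bases long in the deposited table. Mcl1-202 consists of a reading frame of 285 codons and a stop codon, with 0 untranslated bases before the start codon, and its annotation carries the tag non_canonical_TEC. It lacks a stretch of 138 bases, 46 codons of the first part of the frame (chr3:95658909-95659046, plus strand, GRCm38), shown whole with its first and last bases in capitals.
Mcl1-201: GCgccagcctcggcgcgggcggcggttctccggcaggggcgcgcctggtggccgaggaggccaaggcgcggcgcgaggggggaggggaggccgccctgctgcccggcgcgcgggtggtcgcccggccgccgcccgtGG
The stretch begins with GC and ends with GG, whereas most mammalian introns begin with GT and end with AG. The BH3 codons lie after it and are in both models. Whether RNA that lacks the stretch was present in these cells was not tested. The deposited gene TPM of Mcl1 in replicate 2 lay just above its own interval of 538 to 553 TPM, the 1 such case among members.

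For Bbc3, 2 models shared the signal. Bbc3-202, whose 485-base model has no annotated end, was at 229 TPM in replicate 1 and 241 in replicate 2, or 60.3% and 52.5%. Bbc3-201, which encodes the full frame of 193 codons, was at 143 and 204 TPM, or 37.6% and 44.5%. By counts the order was the other way, and Bbc3-201 held 73.7% and 78.7% of the reads. The model of Bbc3-202 ends 35 bases before the BH3 codons shown above, and the 2 models start 839 bases apart. Since that end is a limit of the model, its TPM does not show a message without BH3 codons.

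For Bcl2l11, the short coding form led by TPM. In mice, alternative splicing of this gene gives the extra-long, long and short BIM proteins, of which the short one lacks the segment that binds dynein light chain. Bcl2l11-204, of 110 codons, was at 46.1 TPM in replicate 1 and 40.6 in replicate 2, or 64.7% and 53.1%. Bcl2l11-203, of 140 codons, was at 2.90 and 2.03 TPM. Bcl2l11-205, of 196 codons, was at 0.580 and 0.710 TPM, which was under 1% of TPM but 4.74% and 4.94% of counts. The models without a reading frame held 28.6% of TPM in replicate 1 and 41.6% in replicate 2, led by Bcl2l11-208 at 9.50 and 18.5 TPM.
The lengths of these models differ widely, with a last exon of 212 bases in Bcl2l11-204 and 4317 bases in Bcl2l11-205. The point where the 3 coding forms part is given here (GRCm38, plus strand, from chr2:128128742-128128771 in Bcl2l11-205), with the 15 bases they share in lower case and the bases that follow in capitals.
Bcl2l11-205: agacagaaccgcaagGTAATCCCGACGGCG
Bcl2l11-203: agacagaaccgcaagACAGGAGCCCGGCAC
Bcl2l11-204: agacagaaccgcaagCTTCCATACGACAGT
By counts, Bcl2l11-204 led in replicate 1 with 40.9% and Bcl2l11-208 in replicate 2 with 38.7%, so the leading model by counts differed between the libraries.

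Bcl2l1, Bcl2 and Bid each had most of their TPM on 1 model. Bcl2l1-201, which encodes BCL-XL, held 83.6% of Bcl2l1 TPM in replicate 1 and 73.5% in replicate 2, and most of the rest, 12.1% and 21.1%, was on Bcl2l1-209, which has no reading frame. Bcl2-201, of 236 codons, held 81.9% and 85.6% of Bcl2, and Bcl2-202, of 199 codons, held the remainder. Bid-201 held 87.3% and 98.0% of Bid. A decay model, Bid-204, was at 1.95 TPM in replicate 1 and listed at 0 in replicate 2. Bax and Pmaip1 have 1 model each in the deposited tables.
Bad was divided among coding models that all keep the BH3 codons. Bad-204, whose annotated start is missing, was at 33.5 and 28.7 TPM, Bad-202, of 162 codons, at 13.95 and 19.5 TPM, and Bad-201, of 204 codons, at 12.3 and 10.8 TPM. By counts Bad-204 led in replicate 1 and Bad-202 in replicate 2. Summed over the 10 members, transcripts annotated as protein-coding held 78.1% of TPM in replicate 1 and 82.4% in replicate 2 (80.2 ± 3.05%, SD, n = 2).

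To see how far levels rested on short models, all counts of a gene were placed on its longest protein-coding transcript, a calculation chosen after the transcript shares were seen. On this scale Bbc3 came first at 226 ± 46.5 and Bak1 second at 214 ± 36.9, both on the TPM scale (SD, n = 2). Bax was at 146 ± 7.38, as in gene TPM, and Mcl1 was the fourth at 137 ± 17.0, since its gene TPM was 3.64 times that level. Bcl2l11, whose gene TPM was 5.55 times its level on the longest transcript, was at 12.2 in replicate 1 and 14.4 in replicate 2, order 8 of 10. Of the 45 pairs of members, 37 kept their order in both libraries, 5 had the opposite order in both and 3 had a different order in each library. The summed survival genes were then below the summed effector genes in both libraries, with log2 ratios of -1.29 and -0.85. By reads alone, as CPM (counts scaled to library size with no correction for length), Bak1 was highest at 395 ± 76.2, followed by Mcl1 at 376 ± 39.2 and Bbc3 at 310 ± 57.2. Mcl1, Bbc3 and Bak1 were thus among the 4 highest members on these 3 scales, and which of them came first was not settled by these tables. With protein-coding transcripts alone, Mcl1 and Bbc3 remained the 2 highest, at 498 ± 78.3 and 408 ± 51.8 TPM. Bak1 was then at 24.6 ± 5.44 TPM, order 7 of 10. That value and order leave out the Bak1 model of unknown class, at 41.1 TPM in replicate 1 and 30.6 in replicate 2.

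**Figure D3:**
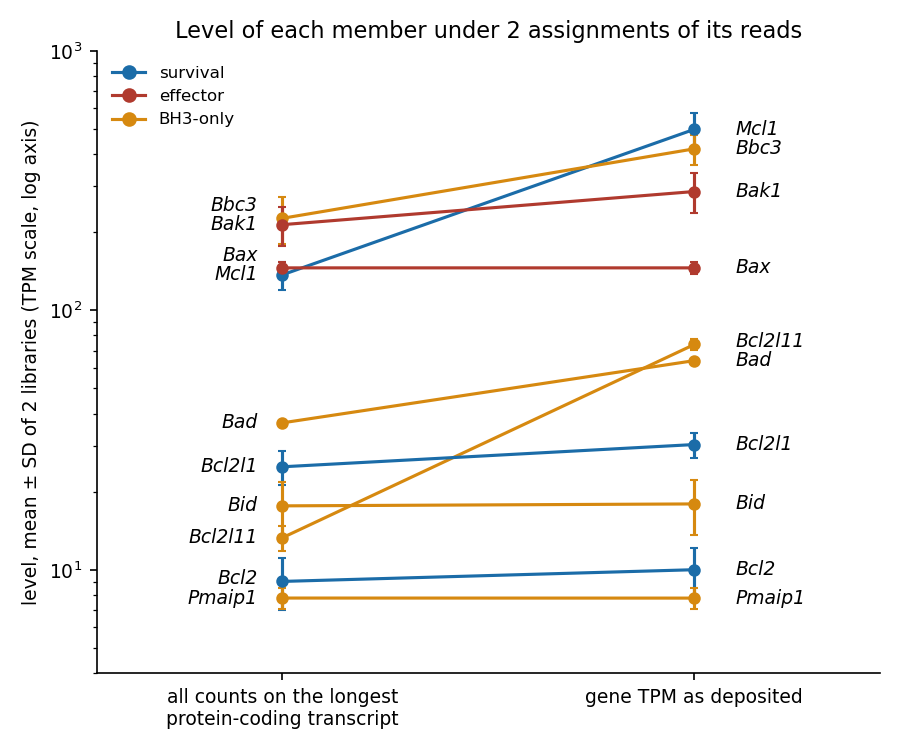
Level of each member with all its counts on the longest protein-coding transcript (left) and as deposited gene TPM (right), mean and SD of 2 libraries on a log axis. Mcl1 stands at 137 on the left and 498 on the right and Bcl2l11 at 13.3 and 73.9, while Bax and Pmaip1 lie at the same height on both sides.

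No member was more than 2-fold apart between the 2 libraries. On log2 CPM with TMM scaling (a correction for library composition), 0 of 10 members had separate TPM intervals together with a difference of over 2-fold. Of the 7653 protein-coding genes whose mean TPM reached 5, 1.37% did, so 0 of 10 says nothing particular to the members. TPM intervals alone were separate between libraries for 8 of 10 members, against 66.8% of those genes. These intervals are of unstated level and were compared without TMM scaling. Bid was farthest apart, with a log2 difference of 0.59 (replicate 1 minus replicate 2), or 1.51-fold, and 91.6% of genes differed less. Bak1 followed at 0.45, Bcl2l1 at 0.41, Pmaip1 at 0.29, Bax at 0.21 and Bad at 0.10, all higher in replicate 1. Bcl2 at -0.37, Bbc3 at -0.32, Mcl1 at -0.15 and Bcl2l11 at -0.13 were higher in replicate 2. Both effectors were thus higher in replicate 1, while survival and BH3-only genes were divided. The median size of the difference was 0.31 over members and 0.19 over all those genes, so the members were not closer between libraries than other genes.

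**Figure D4:**
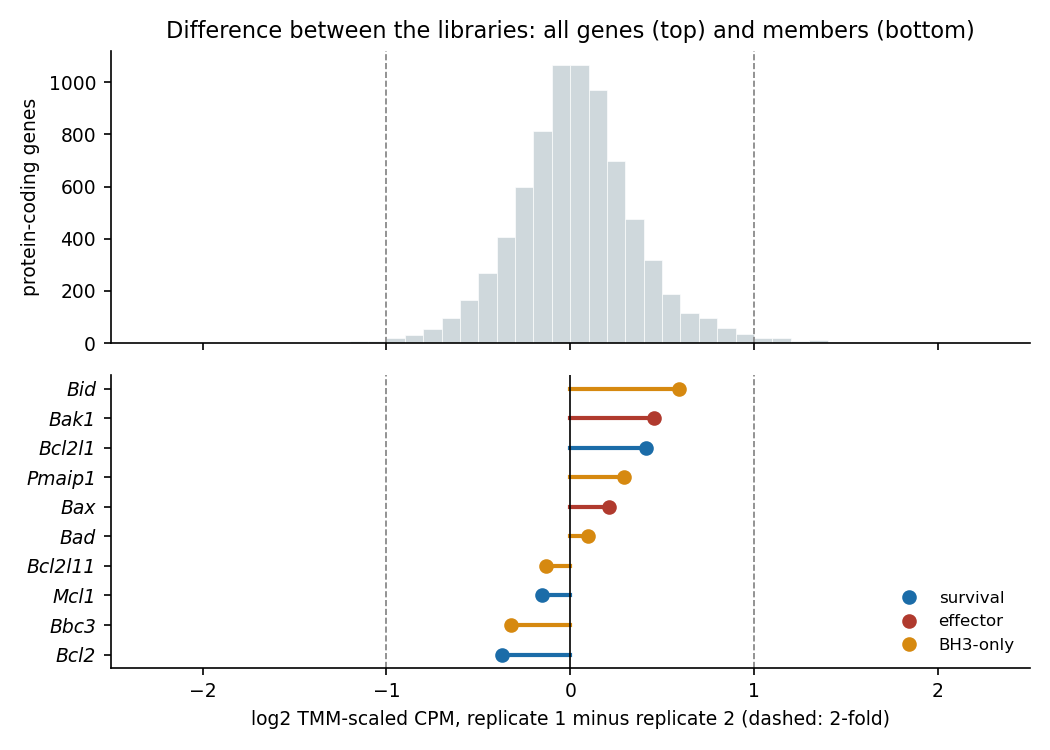
Difference between the libraries as log2 TMM-scaled CPM, replicate 1 minus replicate 2, for 7653 protein-coding genes (top, number per bin of 0.1, with 4 genes beyond the axis) and for each member (bottom), with dashed lines at 2-fold. All members lie between -0.37 and 0.59, well inside the 2-fold lines.

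Genes of other cell types moved with the replicate. The 6 granulocyte and monocyte markers, led by Mpo, Prtn3 and Elane, summed to 31034 TPM in replicate 1 and 16992 in replicate 2, and 6 of 6 were higher in replicate 1. The 6 B cell markers summed to 86.0 and 34.8 TPM, again 6 of 6 higher in replicate 1. The 6 erythroid markers, led by Blvrb and Car2, summed to 641 and 774 TPM, the 6 megakaryocyte markers to 216 and 352, and the 6 stem and multipotent markers to 97.6 and 182, with 6 of 6 of each list higher in replicate 2 in TPM. For the erythroid gene Klf1 this rests on 123.22 and 123.77 TPM, and on the TMM-scaled CPM scale its log2 difference was 0.10, higher in replicate 1. On that scale 53.6% of the 7653 protein-coding genes whose mean TPM reached 5 were higher in replicate 1. Of the stem and multipotent markers, Mecom and Slamf1 were under 1 TPM in both libraries. T and NK cell markers summed to 35.5 and 18.9 TPM, nearly all from Nkg7 (Cd3e at 0.330 and 0.310 TPM). Mast cell and basophil markers summed to 72.7 and 76.7 TPM, mostly from Prss34 at 56.9 and 60.4. The granulocytic genes thus stood far above the erythroid and megakaryocytic genes the label names. No marker of the 7 lists was at 0 in both libraries. The part of this difference in composition in the member levels or in their differences between libraries was not tested.

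Some members share their locus with genes on the other strand, and nothing read here says whether reads were counted by strand. Gpr137 overlaps Bad and had 5020 and 3387 expected counts, against 3192 and 2551 for Bad itself. Bcl2l13 overlaps Bid and was at 17.0 and 16.8 TPM, and Ggnbp1 overlaps Bak1 and was at 5.16 and 5.96 TPM. How reads were divided within these overlaps was not tested.

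Beyond the 10 members, 53 of 64 listed genes of the pathway were detected at 1 TPM or more in both libraries, and 1 of them was more than 2-fold apart between libraries with separate intervals. The share of all genes at this threshold is not given here, so nothing particular to the pathway is read from the count detected. Of 5 other survival genes, Bcl2l2 (BCL-W) alone was detected, at 13.7 and 16.4 TPM, above Bcl2 in both libraries. Bcl2a1b had 1 count in replicate 1 and 0 in replicate 2, and Bcl2a1a, Bcl2a1d and Bcl2l10 were listed at 0. Reads cannot be split reliably among the Bcl2a1 genes, which are almost the same in sequence, but the 3 together had 1 count. Among the genes listed here as survival genes, Mcl1, Bcl2l1, Bcl2l2 and Bcl2 were thus the ones detected.

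Of 5 genes listed as other effector and effector-like, 3 were detected. The listing does not show that each acts as an effector. Bcl2l12 was at 166 and 131 TPM, Bcl2l13 at 17.0 and 16.8, and Bok, an effector that can act without BAX and BAK, at 1.65 and 2.44. Bcl2l14 was at 0.180 TPM in each library and Bcl2l15 at 0.280 and 0. Of 7 other BH3-only and BH3-like genes, 6 were detected, led by the autophagy gene Becn1 at 120 and 159 TPM, with Bnip1 at 24.6 ± 2.67, Bnip3l at 14.6 ± 1.73 and Bnip3 at 12.6 ± 1.56 (SD, n = 2). Bik was at 1.52 and 1.61 TPM, and Hrk was listed at 0. Bmf, a BH3-only gene, was at 13.1 TPM in replicate 1 and 2.63 in replicate 2. In counts it was 2.39-fold higher in replicate 1, the single listed gene past the 2-fold rule.

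Downstream of mitochondria, all 8 apoptosome and caspase genes were detected, at low levels. Casp6 was highest at 19.8 ± 3.61 TPM, followed by Apaf1, the scaffold of the apoptosome, at 17.2 ± 0.509, Casp9, its initiator caspase, at 14.6 ± 2.33 and Cycs (cytochrome c) at 11.8 ± 1.88. The initiator Casp8 was lowest at 5.46 ± 0.127. All 7 inhibitors of apoptosis and their antagonists were detected, led by Birc5 (survivin, also a mitotic protein) at 101 ± 20.3, Htra2 at 96.9 ± 1.06, Xiap at 38.1 ± 7.09 and Birc6 at 17.7 ± 4.28, with Diablo at 12.4 ± 0.148 and Birc2 at 6.71 ± 3.56. Of the 3 channels of the outer membrane, Vdac2, whose protein holds BAK, was highest at 532 and 431 TPM, with Vdac1 at 33.8 ± 1.87 and Vdac3 at 10.7 ± 0.622.

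**Figure D5:**
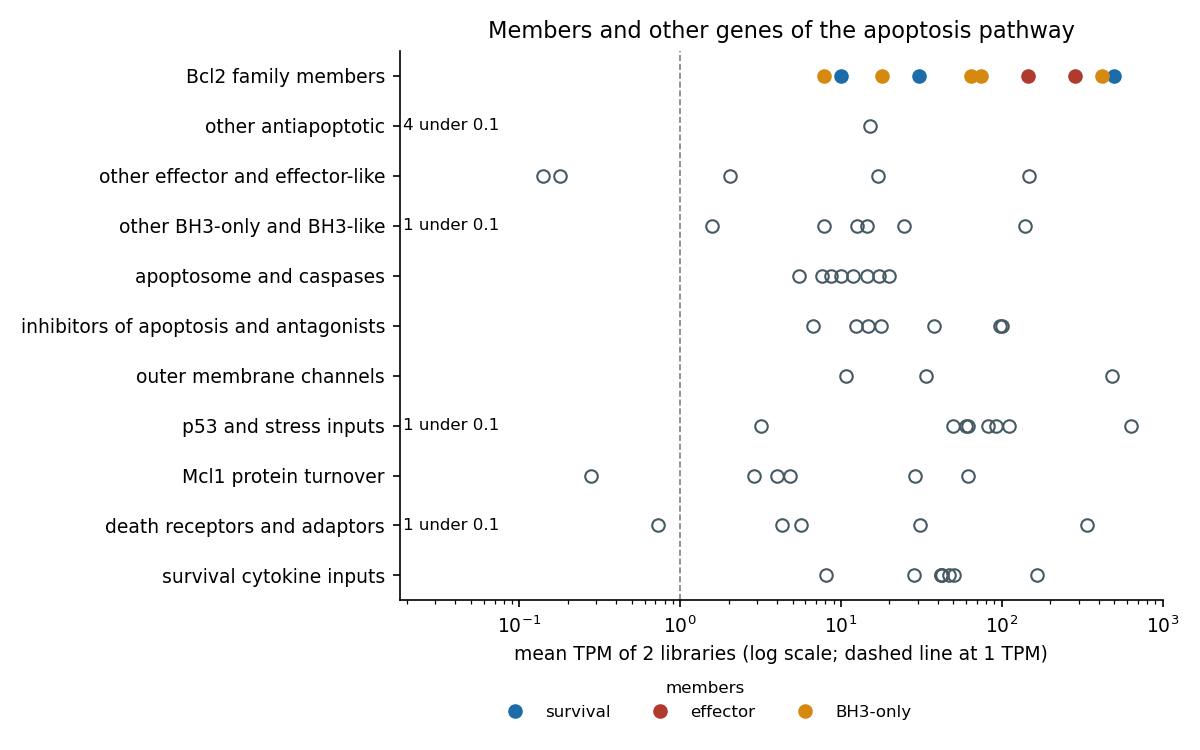
Mean TPM of the 10 members (top row, filled, by role) and of the genes of 10 pathway lists (open circles) on a log axis, with genes under 0.1 TPM counted at the left. The members span 7.79 to 498 TPM, all right of the 1 TPM line, whereas 4 of 5 other antiapoptotic genes lie under 0.1 TPM.

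Genes that feed the family were mostly present. Of 9 p53 and stress genes, 8 were detected, led by Atf4 at 640 ± 17.9 TPM, Trp53 (p53) at 110 ± 3.57, E2f1 at 92.0 ± 6.34 and Ddit3 (CHOP) at 62.3 in replicate 1 and 101 in replicate 2. Foxo1 was at 3.17 ± 0.368, and Trp73 had 0 and 1 counts. Of 6 genes for turnover of MCL1 protein, 5 were detected, led by the ubiquitin ligases March5 at 61.5 ± 2.68, Huwe1 at 29.0 ± 7.91 and Fbxw7 at 4.84 ± 1.20 and by the deubiquitinase Usp9x at 4.02 ± 0.304. Btrc was at 2.87 ± 0.474 and Trim17 at 0.280 ± 0.0283.
Of 6 genes for death receptors and adaptors, 4 were detected, and Tnfrsf1a was the only receptor among them. Tnfrsf1a, the TNF receptor, was at 428 TPM in replicate 1 and 251 in replicate 2, and the adaptor Tradd at 30.9 ± 2.52, Cflar at 5.61 ± 0.714 and Fadd at 4.28 ± 0.0566 were lower. Tnfrsf10b was at 0.610 and 0.840 TPM, and Fas was at 0.0200 and 0.0600 TPM, with 2 and 4 counts. The 8 genes listed as survival cytokine inputs are receptor, Jak2 and Stat5 genes, with no cytokine among them, and all were detected. They were led by Il3ra at 165 ± 32.5, Csf2rb at 61.9 in replicate 1 and 39.4 in replicate 2, Epor at 46.9 ± 7.54 and Stat5b at 42.7 ± 7.65. Jak2 was lowest at 8.09 ± 0.806.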

How the data were processed

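Poly(A) RNA of 2 MEP libraries was analysed, grouped by the biological replicate numbers in the labels. Per the file headers, the authors deposited an expected count, a TPM and an FPKM per gene and transcript, posterior means, TPM intervals of unstated level and each transcript's percent of its gene. The text file with each library names mm10 and GENCODE M4. The aligner, the quantifier and the handling of strand were not given in the sources used here. Identifiers without version were matched to GENCODE M21 (42462 of 43346), which gave symbols, GRCm38 coordinates, transcript classes and the transcript sequences.

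The expected count totals over annotated genes were 79539457 (replicate 1) and 65305321 (replicate 2). The 26345 other rows, with 1 and 0 counts, were left out. Expected counts were rounded, filtered with filterByExpr (13546 genes kept) and scaled by TMM (factors 0.980 and 1.02) to log2 CPM with a prior count of 2 in edgeR 4.0.16 (R 4.3.3). DESeq2 1.42.0 gave alternative size factors. Other steps used Python 3.11.15, numpy 2.4.6, pandas 2.3.3 and matplotlib 3.10.9. Ordering of pairs used a pseudocount of 0.01 TPM. The 2-fold part of the rule, without its interval condition, was run on simulated counts with known changes.

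The members were given by name. The members and lists were chosen with earlier results of these data known. Of each pathway list, the 4 highest and 2 lowest genes by mean TPM and any gene past the 2-fold rule were named. Values of some of these genes are not reported here. Nothing states that the replicates came from separate animals, so their spread may be technical in part. No p-value was computed. Intervals cover error within 1 library only.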

Additional observations from a re-analysis of the deposited data

How the results depend on the processing

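No paired analysis was possible because the series holds 1 group and no test was made. Of 49 comparisons of main results with an alternative setting, 42 stayed within the spread between libraries or within 1.5 times the main count. Leaving out 1 library could not move a ratio or the protein-coding share under this rule. Each of 2 values always lies closer to their mean than their SD. Dropping the filter on low counts repeated the main calculation of members apart between replicates. With 10 of 10 members at 1 TPM in both libraries, their detection at 0.1 TPM or in 1 library alone could not differ. These outcomes were fixed in advance and add no support to the 42. The survival to effector log2 ratio, 0.32 as reported, was 1.64 with protein-coding transcripts alone, where Bak1 drops to 24.6 TPM, and -1.07 with all counts on the longest protein-coding transcript. The BH3-only to effector ratio, 0.43 as reported, was -0.10 in expected counts not corrected for length, 1.67 with protein-coding transcripts alone and -0.25 on the longest transcript. Leaving out 1 library gave 0.03 to 0.60 and 0.20 to 0.66 for these ratios, 37 to 38 ordered pairs and 78.1% to 82.4% for the protein-coding share. At 1.5-fold in place of 2-fold, 1 member (Bid) was apart between libraries in place of 0. The protein-coding share was 72.7% of expected counts against 80.2% of TPM. Detection of members held at 10 of 10 under each threshold, and pathway genes detected ranged from 44 at 5 TPM to 56 at 0.1 TPM. The direction of the difference between libraries was the same for 10 of 10 members under library totals, DESeq2 size factors and both TPM scales. The calculations on the longest transcript and on shares of counts were chosen after seeing the data. Counting depth did not limit the detection of members, since the lowest, Pmaip1, had 1379 and 961 counts.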
